A study of Mus musculus with 26 samples.

Results

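The 10 genes described here, *Atf4*, *Atf3*, *Ddit3*, *Trib3*, *Chac1*, *Asns*, *Psat1*, *Phgdh*, *Stc2* and *Fgf21*, belong to the ATF4 pathway of the integrated stress response and were looked up by symbol among the 23337 genes counted. All 10 were present. The set was drawn up around *Stc2*, whose level in the initial segment (IS) of the epididymis of ArKI mice had been seen to be high, so the set was chosen by the *Stc2* values of the IS, and these are given as a description with no test. The other 9 genes were taken for their place in the pathway, with earlier results of these data known. RNA was sequenced from 3-month-old male mice of a C57Bl/6N; 129 hybrid background that were either wild type (WT) littermates or ArKI, a knockin line whose changed gene is carried by every cell of the animal rather than by one cell type. The IS and the caput, the adjoining proximal segments of the epididymis, came from 5 WT and 5 ArKI mice in one sequencing batch, and testis from 3 WT and 3 ArKI mice in another. The labels do not tie a replicate number to a mouse across the segments. The question put to these genes was whether the rise of *Stc2* in the ArKI IS came with the rest of the ATF4 programme.

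In the integrated stress response, kinases that sense endoplasmic reticulum stress, amino acid shortage, haem shortage or viral RNA phosphorylate the translation factor eIF2. General translation then falls while translation of the *Atf4* mRNA goes up, so that the *Atf4* mRNA level need not follow the amount of ATF4 protein. ATF4 and its partners of the C/EBP family bind C/EBP-ATF response elements (CARE) and induce other transcription factors (*Atf3*, *Ddit3*), feedback and redox regulators (*Trib3*, *Chac1*), enzymes that make amino acids (*Asns*, *Psat1*, *Phgdh*) and secreted factors (*Stc2*, *Fgf21*).

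The gene starts were searched for the CARE because the genes share ATF4 as a known regulator. In the RefSeq windows of the GRCm38.p6 build, 250 bases before to 50 bases after each start site, the letters TGATGNAA on either strand were found in 3.97% of 32851 windows and in 5 of the 11 windows of the 10 genes (*Psat1* has 2 windows). The matches lay in the windows of *Atf3*, *Trib3*, *Chac1*, *Asns* and *Fgf21*, at -110, 15, -193, -23 and -139 from the start site. The 30 bases around each match are shown on the strand of the gene, with the match in capitals, from chr1:191183425-191183454 (minus strand), chr2:152344028-152344057 (minus), chr2:119351038-119351067 (plus), chr6:7693214-7693243 (minus) and chr7:45615611-45615640 (minus).
Atf3: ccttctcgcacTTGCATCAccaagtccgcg
Trib3: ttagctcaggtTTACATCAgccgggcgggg
Chac1: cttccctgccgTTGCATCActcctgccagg
Asns: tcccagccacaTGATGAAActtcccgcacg
Fgf21: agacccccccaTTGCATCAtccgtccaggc
The *Stc2* window held no match. Its 200 most upstream bases, at chr11:31370112-31370311 on the minus strand, are shown because *Stc2* is the gene with the largest difference in the set.
Stc2: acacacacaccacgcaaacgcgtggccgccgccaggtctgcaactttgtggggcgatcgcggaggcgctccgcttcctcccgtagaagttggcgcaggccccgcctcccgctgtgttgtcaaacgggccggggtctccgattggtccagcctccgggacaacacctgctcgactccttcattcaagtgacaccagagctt
Of the other motifs searched on both strands, the cyclic AMP response element TGACGTCA was in 1.79% of all windows and the endoplasmic reticulum stress response element in 0.119%, and neither was in a window of the 10 genes. A match is a description of these letters, and a window without one says nothing of sites elsewhere.

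The IS libraries held 5829074 to 9770625 counts, the caput libraries 4125768 to 11913469 and the testis libraries 14077013 to 21376604. Caput ArKI replicate 2 was the shallowest and stood apart in its markers, with a summed level of 7 fibroblast and endothelial genes of 1943 CPM (counts relative to the normalised library total) against a median of 957 CPM in the caput ArKI group and 771 CPM in caput WT. The knockin changes single bases, so gene counts cannot check the genotype labels. Summed over 8 IS epithelial markers, IS WT lay between 36320 and 39817 CPM and caput WT between 18615 and 25601 CPM, but the 7 caput markers did not separate the segments, with 71913 to 79388 CPM in IS WT and 63634 to 80708 CPM in caput WT. Sperm and spermatid markers were lower in ArKI, with a summed level over 8 genes of 10.6 to 71.0 CPM in IS WT against 2.00 to 6.14 CPM in IS ArKI, and of 231 to 363 CPM in caput WT against 36.0 to 96.9 CPM in caput ArKI. In the IS the summed level of 6 smooth muscle genes was 3489 to 3744 CPM in WT and 2891 to 3451 CPM in ArKI (5 of 6 fell, median log2 fold change -0.96), and that of 5 basal cell genes 373 to 408 CPM and 308 to 328 CPM (3 of 5 fell). The leukocyte sum was 110 to 141 CPM and 81.7 to 116 CPM (3 of 7 tested fell). Efferent duct genes summed to 309 to 370 CPM and 317 to 575 CPM (2 of 6 rose). Of the clear cell genes 2 of 5 rose and 1 fell, as did those tested of the Leydig and Sertoli cell genes. The part of these markers in the results below was not tested. In whole tissue, fewer cells that express a gene and less RNA per cell cannot be told apart.

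A gene is said to have risen or fallen where edgeR's quasi-likelihood test gave a Benjamini-Hochberg adjusted p under 0.05 over all genes tested in that tissue. In the IS, where 29.6% of all genes tested passed (15% higher and 14.6% lower in ArKI), 9 of the 10 genes had counts enough to test. *Stc2* aside, *Psat1* and *Phgdh* rose, none fell, and the remaining 6 did not pass. In the caput, where 27.7% of all genes passed (13.7% higher and 14% lower), all 10 were tested, of which *Stc2* rose, *Atf3*, *Asns* and *Fgf21* fell, and 6 did not pass. In the testis, where 1.96% of all genes passed (1.64% higher and 0.328% lower), 8 were tested, and only *Stc2* passed, upward. Neither *Psat1* nor *Phgdh* passed in the caput, and of the 3 genes that fell in the caput, *Atf3* and *Asns* did not pass in the IS and *Fgf21* could not be tested there. Under the thresholds of the study, an adjusted p under 0.01 with more than 2-fold change for the epididymis, which 4.04% of genes met in the IS and 4.98% in the caput, *Fgf21* in the caput was the only one of the 10, *Stc2* in the IS aside. The testis thresholds of the study, an adjusted p under 0.2 with more than 2-fold change, were met by *Stc2* and by 0.833% of all genes. *Stc2* in the testis and *Fgf21* in the caput passed the count filter only with the counts of the group where each is high. *Stc2* in the IS aside, ArKI and WT samples did not overlap for *Psat1* in the IS, for *Asns*, *Stc2* and *Fgf21* in the caput and for *Stc2* in the testis, against 20%, 20.2% and 17.8% of all genes tested in the 3 tissues.

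**Figure D1:**
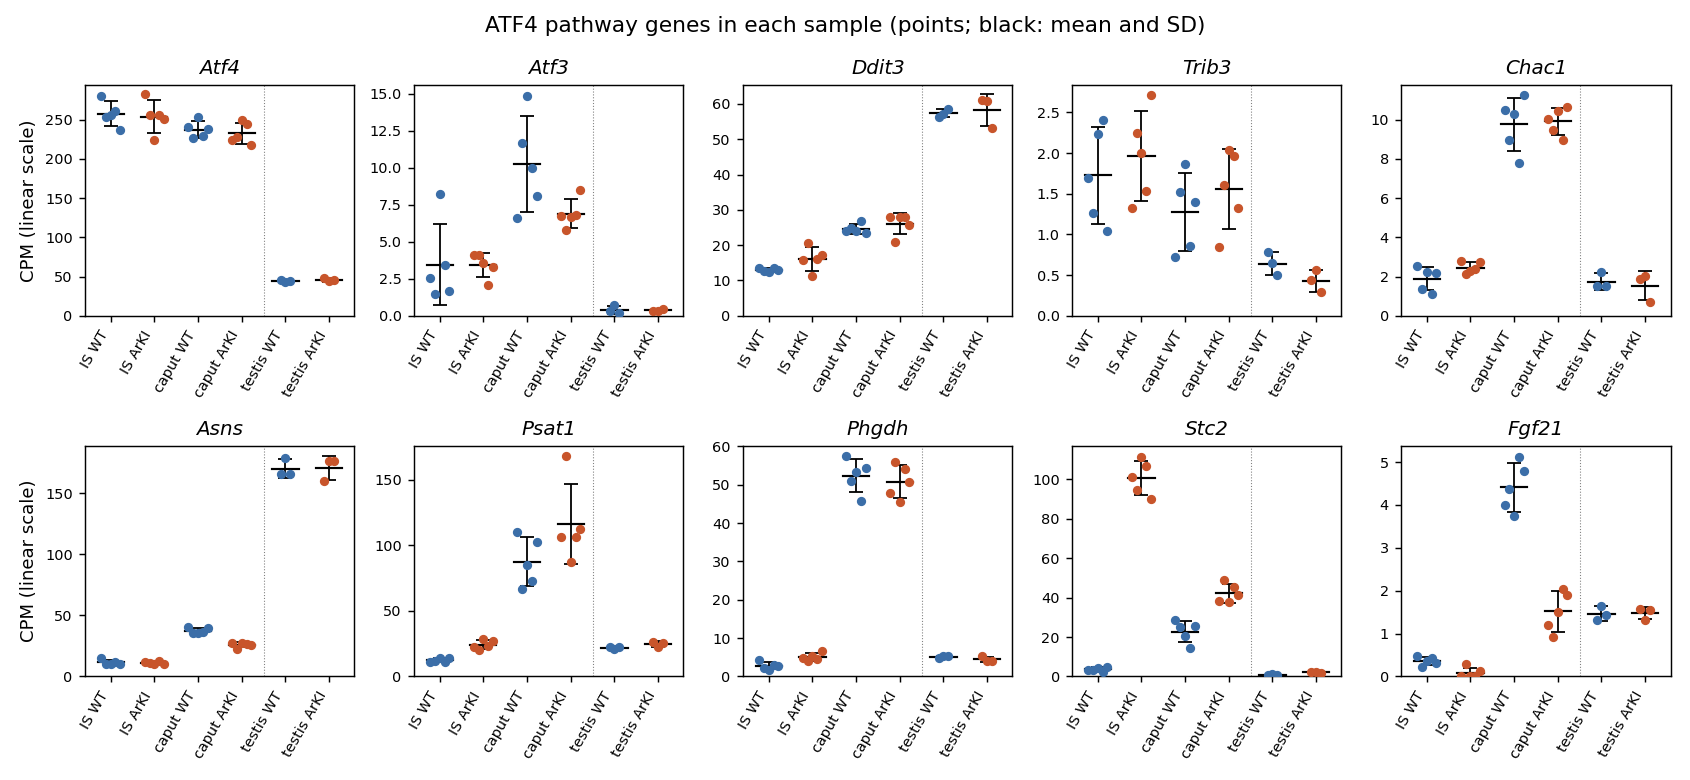
Level of each of the 10 genes in each sample, in CPM on a linear scale that starts at 0 and differs between panels; points are samples (5 per group in the IS and caput, 3 per group in the testis, right of the dotted line and scaled apart from the epididymis), and black bars give the mean and SD. *Stc2* stands at 89.9 to 111 CPM in IS ArKI and at 2.40 to 5.01 CPM in IS WT, while *Atf4* lies between 224 and 283 CPM in both.

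*Stc2* (chr11:31359441-31370061, minus strand, 4 exon blocks on GRCm38) codes for stanniocalcin-2, a secreted glycoprotein that inhibits the PAPP-A proteases of the insulin-like growth factor (IGF) system. Its level in IS WT was 3.38, 3.20, 4.22, 2.40 and 5.01 CPM in replicates 1 to 5, from 17 to 48 counts per library. In IS ArKI it was 101, 94.6, 111, 107 and 89.9 CPM, from 624 to 780 counts. The lowest ArKI sample was 17.9-fold above the highest WT sample, the means (3.64 ± 1.00 and 101 ± 8.69 CPM, SD, n = 5) differed 27.6-fold, and the fitted log2 fold change of 4.76 was rank 3 from the top among the 13434 genes tested. These are the values the gene was chosen for.

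In the caput, from the same mice, *Stc2* was at 28.7, 24.9, 20.3, 14.5 and 25.4 CPM in WT and at 38.1, 48.9, 37.6, 45.4 and 41.2 CPM in ArKI. Every ArKI sample was above every WT sample, and *Stc2* rose 1.84-fold (log2 fold change 0.88, SE 0.15, adjusted p = 0.00135), rank 512 among the rises there. Without caput ArKI replicate 2, which had the highest value, the log2 fold change was 0.84 (adjusted p = 0.00359). In the testis *Stc2* was at 0.540, 1.15 and 0.713 CPM in WT (9 to 16 counts) and at 2.32, 2.40 and 1.85 CPM in ArKI (32 to 51 counts), again without overlap, and rose 2.77-fold (log2 fold change 1.47, SE 0.29, adjusted p = 0.00468), rank 48 from the top. In the same libraries the summed level of the IS epithelial markers was 387 to 453 CPM in WT and 1211 to 1406 CPM in ArKI (1 of 7 tested rose). That of the fibroblast and endothelial markers was 117 to 130 CPM and 150 to 160 CPM (2 of 7 rose). For the Leydig and Sertoli cell genes it was 921 to 1127 CPM and 1262 to 1376 CPM (2 of 10 rose). Their part in the testis value was not tested. *Stc2* passed the count filter in the testis only through ArKI, where it is high, and its p-value there carries that limit. The caput and testis values come from samples that did not choose the gene, although the caput shares its mice with the IS.

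In WT mice *Stc2* was lower in the IS than in the caput, with a fitted difference of -2.62 on the log2 scale, or 6.16-fold; this sets the WT IS samples that chose the gene against caput samples that did not, and no test is given. In ArKI mice the order was turned, and the mean of IS ArKI was 2.38-fold that of caput ArKI and 4.42-fold that of caput WT. The lowest IS ArKI sample was 1.84-fold above the highest caput ArKI sample. The genotype difference in the IS exceeded that in the caput by 3.89 on the log2 scale, also without a test, since the IS values enter it.

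*Fgf21* (chr7:45613890-45615490, minus strand, 3 exon blocks), the other secreted factor, an endocrine hormone of fasting and stress, was lower in ArKI where it could be tested in the epididymis. In the caput it was at 4.003, 4.37, 3.74, 5.12 and 4.7995 CPM in WT and at 1.21, 0.922, 1.51, 2.05 and 1.90 CPM in ArKI, from 32 to 42 counts and from 4 to 24 counts. The groups did not overlap, ArKI being the lower. *Fgf21* fell 2.72-fold (log2 fold change -1.45, SE 0.21, adjusted p = 5.65e-05). With all libraries, *Fgf21* passed the count filter only through caput WT, where it is high, and this p-value carries that limit. When the minimum count was required of every sample, *Fgf21* could not be tested in the caput. Without caput ArKI replicate 2 the log2 fold change was -1.36 (adjusted p = 5.43e-05). In the IS it had 4, 2, 3, 3 and 3 counts in the WT libraries and 0, 2, 0, 0 and 1 in the ArKI libraries, where 3 counts correspond to 0.307 to 0.515 CPM, and these counts were below the filter, so it was not tested. In the testis it was at 1.47 ± 0.170 CPM in WT and 1.48 ± 0.142 CPM in ArKI (SD, n = 3), with a log2 fold change of 0.01 and a 95% interval from -0.51 to 0.53.

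Of the 3 enzymes of serine synthesis, *Psat1* and *Phgdh* rose in the IS and *Psph*, the phosphatase of the last step, did not pass (log2 fold change -0.27, adjusted p = 0.116). *Psat1* (chr19:15905123-15925059, minus strand, 10 exon blocks), phosphoserine aminotransferase, was at 11.1, 11.8, 14.3, 11.3 and 13.8 CPM in IS WT and at 22.8, 20.4, 28.4, 23.4 and 26.7 CPM in IS ArKI. The groups did not overlap, and *Psat1* rose 1.95-fold (log2 fold change 0.97, SE 0.11, adjusted p = 1.08e-06), just short of the 2-fold threshold. *Phgdh* (chr3:98313171-98339969, minus strand, 12 exon blocks), the dehydrogenase that opens the pathway, was at 4.34, 2.29, 1.74, 2.97 and 2.71 CPM in IS WT and at 4.75, 4.08, 5.28, 4.61 and 6.73 CPM in IS ArKI, from 14 to 57 counts per library. WT replicate 1 was above the lowest ArKI sample, and *Phgdh* rose 1.82-fold (log2 fold change 0.87, SE 0.23, adjusted p = 0.00646). Reads of *Phgdh* may be shared with near-identical copies, since its transcripts matched 11 other annotated genes over 100 bases or more at 95% identity or higher, the longest over 1608 bases at 97.4%; the other 9 genes had no such match.

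In the caput the level of *Psat1* varied widely within groups, from 66.7 to 110 CPM in WT and from 87.1 to 168 CPM in ArKI, the highest being the shallow replicate 2. Its log2 fold change there was 0.39 (95% interval -0.08 to 0.86, adjusted p = 0.205), and 0.24 without that library. *Phgdh* stood at 52.3 ± 4.37 CPM in caput WT and 50.8 ± 4.37 CPM in caput ArKI (SD, n = 5), a log2 fold change of -0.05 with an interval from -0.20 to 0.10. In the testis the log2 fold changes were 0.16 for *Psat1* (interval -0.02 to 0.35) and -0.22 for *Phgdh* (interval -0.55 to 0.10).

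*Asns* (chr6:7675165-7693209, minus strand, 12 exon blocks), asparagine synthetase and one of the best known ATF4 targets, fell in the caput. It was at 40.7, 35.4, 35.2, 36.1 and 39.3 CPM in caput WT and at 27.0, 22.8, 27.3, 26.9 and 25.9 CPM in caput ArKI. The groups did not overlap, and the fall was 1.42-fold (log2 fold change -0.51, SE 0.07, adjusted p = 2.17e-05; -0.47 and 2.42e-05 without caput ArKI replicate 2). In the IS it was at 11.5 ± 2.15 CPM in WT and 11.04 ± 1.03 CPM in ArKI (SD, n = 5), with a log2 fold change of -0.06 and an interval from -0.33 to 0.21. In the testis, where it was the highest of the 10 per length, the log2 fold change was 0.01 (interval -0.13 to 0.14).

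**Figure D2:**
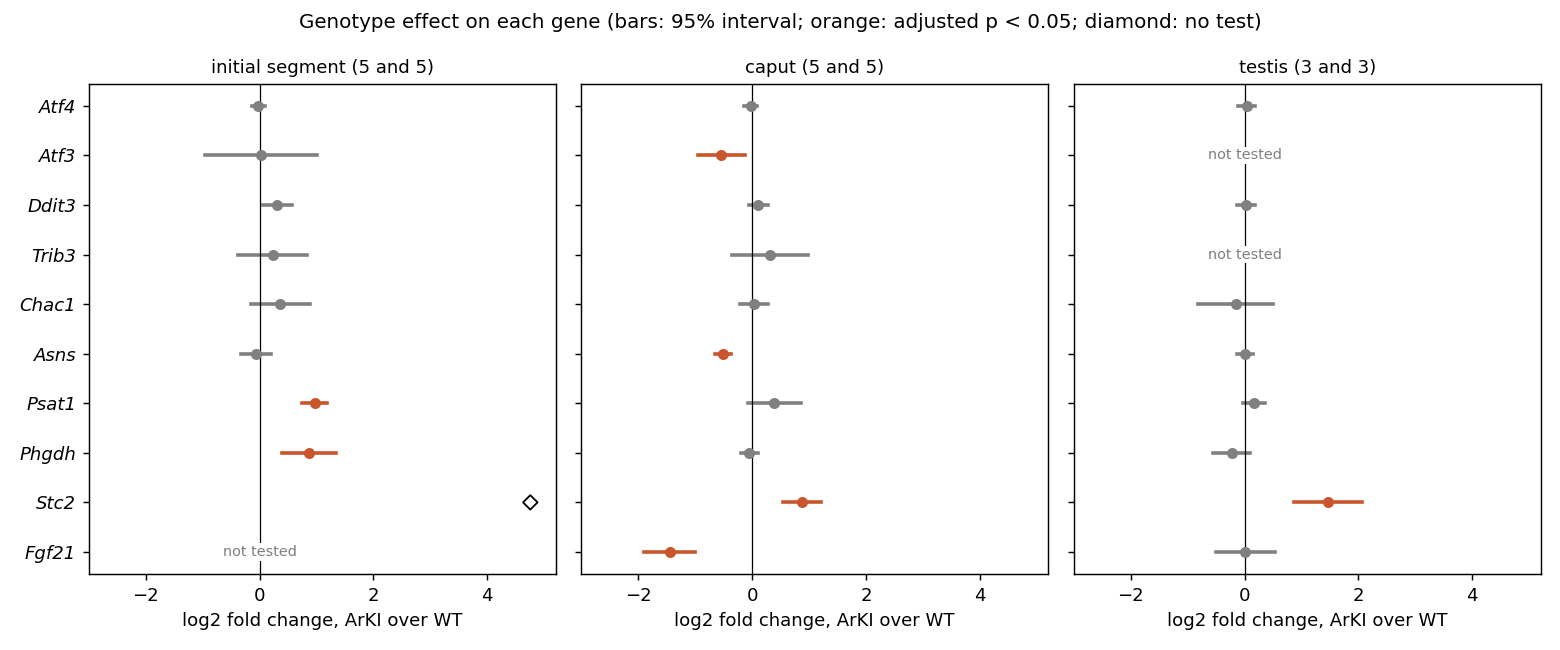
Log2 fold change of ArKI over WT for each gene in the IS, caput and testis; lines are 95% intervals, orange marks an adjusted p under 0.05, and the open diamond is *Stc2* in the IS, given without a test. *Psat1* (0.97) and *Phgdh* (0.87) are to the right of 0 in the IS, *Asns* (-0.51) and *Fgf21* (-1.45) to the left in the caput, and *Atf4* is within 0.04 of 0 in all 3 tissues.

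*Atf4* (chr15:80255184-80257545, plus strand, 3 exon blocks) itself, the transcription factor at the head of the pathway, had nearly the same mRNA level in both genotypes. It was at 281, 253, 256, 261 and 237 CPM in IS WT and at 283, 256, 224, 256 and 251 CPM in IS ArKI, which overlap throughout. The log2 fold change was -0.02 in the IS, -0.03 in the caput and 0.04 in the testis, and the 95% intervals ran from -0.14 to 0.10, from -0.14 to 0.09 and from -0.11 to 0.19. The first 2 turned to 0.01 when libraries were scaled by their totals alone.

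*Atf3*, a stress-induced repressor and activator of the same family, fell in the caput by a small margin. It was at 6.57, 11.7, 14.8, 10.002 and 8.08 CPM in caput WT and at 6.75, 5.76, 6.65, 6.83 and 8.49 CPM in caput ArKI. The groups overlapped, the log2 fold change was -0.54 (SE 0.19, adjusted p = 0.0467), and the call was lost in 10 of 17 alternatives, the adjusted p running from 0.00721 to 0.128 over all 17; caput ArKI replicate 2 was among the libraries whose removal ended it (-0.49, adjusted p = 0.0912). In the IS, *Atf3* was at 2.53, 1.49, 8.19, 3.39 and 1.67 CPM in WT and at 4.09, 4.08, 3.57, 2.05 and 3.31 CPM in ArKI. WT replicate 3 stood apart from the other 4, and in the same library the summed level of 16 immediate early genes was 1477 CPM against 1091 to 1138 CPM in the other WT libraries. The log2 fold change of *Atf3* in the IS was 0.02 (interval -0.97 to 1.01) with that library and 0.63 (adjusted p = 0.0995) without it. In the testis *Atf3* had 3 to 10 counts per library and was not tested.

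*Ddit3*, which codes for the pro-apoptotic factor CHOP, was at 13.5, 12.6, 12.4, 13.6 and 13.05 CPM in IS WT and at 15.7, 20.7, 11.1, 16.0 and 17.1 CPM in IS ArKI. Of the ArKI samples, 4 were above every WT sample and replicate 3 was below all. The log2 fold change of 0.31 (SE 0.12, adjusted p = 0.0653) did not pass, although it did in 2 of 17 alternatives. Among these was the fit without ArKI replicate 3. That library had a summed level of efferent duct genes of 575 CPM, against 317 to 441 CPM in the other IS ArKI libraries. Its sum of IS epithelial markers was 30821 CPM against 35187 to 40964 CPM. The part of these markers was not tested. In the caput and testis the log2 fold changes of *Ddit3* were 0.11 (interval -0.06 to 0.27) and 0.02 (interval -0.13 to 0.18). Exons of *Ddit3* overlap those of *Mars* on the opposite strand over 68 bases, and whether counting used the strand is not stated.

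*Trib3*, a pseudokinase that restrains ATF4 signalling, and *Chac1*, which degrades glutathione, are 2 targets known for a strong response to stress. *Trib3* was low everywhere, at 1.73 ± 0.593 CPM in IS WT and 1.96 ± 0.559 CPM in IS ArKI (SD, n = 5, 9 to 23 counts per library), with a log2 fold change of 0.23 (interval -0.37 to 0.84). In the caput it was 0.31 (interval -0.35 to 0.98), and in the testis *Trib3* had 5 to 13 counts per library and was not tested. *Chac1* stood at 1.89 ± 0.606 and 2.45 ± 0.284 CPM in the IS (8 to 23 counts), with a log2 fold change of 0.37 (interval -0.15 to 0.88), and at 9.75 ± 1.36 and 9.90 ± 0.697 CPM in the caput, with one of 0.03 (interval -0.21 to 0.27). In the IS both intervals ended below a log2 fold change of 1.

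Per length of transcript (RPKM, the CPM per kilobase of exon), *Atf4* was the highest of the 10 genes in both segments and both genotypes, at 149 ± 9.19 RPKM in IS WT. In IS WT the order after *Atf4* was *Ddit3* (14.6 RPKM), *Asns* (5.75), *Psat1* (4.24), *Atf3* (1.74), *Phgdh* (1.48), *Chac1* (1.16), *Stc2* (0.925), *Trib3* (0.852) and *Fgf21* (0.383 RPKM). Neighbours from *Psat1* to *Trib3* overlapped in their ranges, and the others were apart. In IS ArKI *Stc2* moved to rank 2 at 25.6 ± 2.20 RPKM, its range overlapping that of *Ddit3* at 18.1 RPKM. In caput WT *Stc2* was rank 7 at 5.78 RPKM and overlapped both neighbours, *Chac1* and *Atf3*, and in caput ArKI it was rank 6 at 10.7 RPKM, overlapping *Asns* above it and apart from *Chac1* below. In both genotypes of the testis *Asns* led (85.0 and 85.4 RPKM), ahead of *Ddit3* and *Atf4*.

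**Figure D3:**
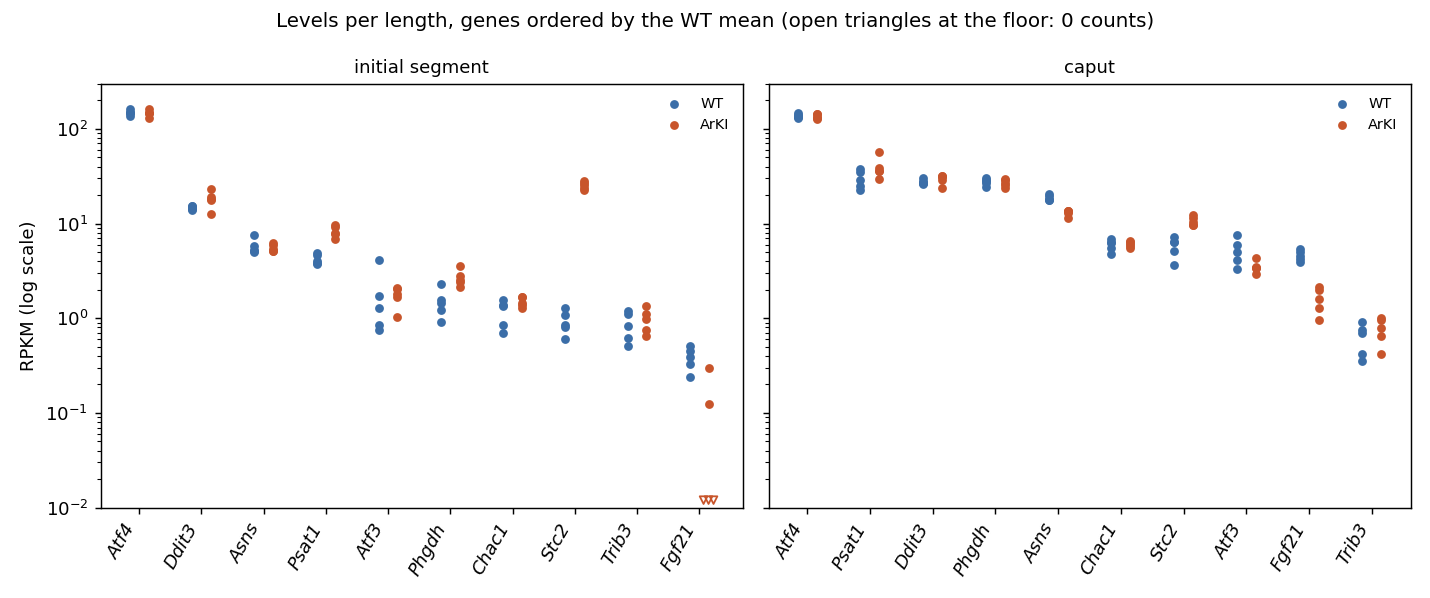
RPKM of each gene in each sample of the IS and the caput on a log scale, with genes in the order of their WT mean; points are samples (5 per group) and open triangles mark libraries with 0 counts. *Stc2* lies at 0.925 RPKM in IS WT, rank 8, and at 25.6 RPKM in IS ArKI, rank 2 after *Atf4*.

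The segments of WT mice differed widely for these genes, as they did for all genes, of which 71.2% passed between WT IS and WT caput (35.8% higher and 35.4% lower in the IS). *Stc2* and *Fgf21* aside, *Atf4* was higher in the IS, 6 of the genes were lower and *Trib3* did not pass. The WT samples of the segments did not overlap for *Ddit3*, *Chac1*, *Asns*, *Psat1* and *Phgdh*, and did not for 57.5% of all genes. *Phgdh* differed most, at 2.81 ± 0.976 CPM in the IS and 52.3 ± 4.37 CPM in the caput, 18.6-fold (log2 difference -4.22, SE 0.13, adjusted p = 1.18e-15). *Fgf21* had 2 to 4 counts per library in IS WT and 32 to 42 in caput WT; it passed the filter only through the caput, and no fold or test is given. *Psat1* was 7.01-fold lower in the IS, *Chac1* 5.07-fold, *Asns* 3.25-fold, *Atf3* 3.00-fold and *Ddit3* 1.89-fold. The *Atf3* difference was -1.59 on the log2 scale, and -2.20 without IS WT replicate 3. The *Atf4* difference was 1.08-fold (log2 difference 0.12, adjusted p = 0.0357), a call lost in 6 of 17 alternatives (adjusted p up to 0.117). The rise of *Psat1* and *Phgdh* in ArKI thus left both well below the caput, with 24.3 ± 3.20 CPM against 116 ± 30.6 CPM for *Psat1* and 5.09 ± 1.01 CPM against 50.8 ± 4.37 CPM for *Phgdh*.

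The genotype difference itself was compared between segments by the interaction in one model of all 20 epididymal samples, which 15.1% of all genes passed (7.77% upward and 7.38% downward). *Stc2* aside, *Phgdh* and *Asns* passed and 6 genes did not; *Fgf21*, with 0 to 4 counts per IS library, entered only through the caput and is left out. The difference for *Phgdh* was larger in the IS by 0.93 on the log2 scale (SE 0.21, adjusted p = 0.00281), and that for *Asns* by 0.45 (SE 0.14, adjusted p = 0.0260), *Asns* being the one that fell in the caput. The *Asns* call was lost in 5 of 27 alternatives (adjusted p up to 0.0560). For *Psat1* the interaction was 0.58 (interval 0.01 to 1.15, adjusted p = 0.167), so that with all libraries its rise in the IS and the missing call in the caput are not shown to differ. Without caput ArKI replicate 2 the *Psat1* interaction passed (0.73, adjusted p = 0.0258).

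The rest of the pathway was read from lists of known genes, of which the up to 3 with the smallest adjusted p in each tissue are named. Each count is to be read against the share of all genes, of which 15% rose and 14.6% fell in the IS and 13.7% rose and 14% fell in the caput. Among 17 genes of the eIF2 kinases, eIF2 and its exchange factor eIF2B, none rose and 3 fell in the IS, namely *Gcn1l1* (log2 fold change -0.67), the partner of the amino acid sensor GCN2, and the eIF2B subunits *Eif2b4* (-0.22) and *Eif2b2* (-0.17), and in the caput *Impact* (-0.17) and *Gcn1l1* (-0.14) fell. The list median was -0.07 in the IS and -0.02 in the caput, against 0.00 over all genes. Among 19 further ATF4 and CHOP targets tested, 3 rose and 4 fell in the IS and 4 rose and 4 fell in the caput, which in the IS is near the shares of all genes. *Nupr1*, a stress-induced chromatin protein, rose in both (0.68 and 1.01), *Vldlr*, a lipoprotein receptor, rose in the caput (0.91), *Vegfa* fell in both (-0.34 and -0.69), *Wars* fell in the IS (-0.32) and *Pmaip1* fell in the caput (-0.69).

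Of the genes of serine, glycine and one-carbon metabolism other than *Psat1* and *Phgdh*, 4 of 14 rose and 1 fell in the IS (15% and 14.6% of all genes), with a median of 0.06. *Mthfd1l*, a mitochondrial folate enzyme, went from 4.70 ± 0.768 to 9.15 ± 0.875 CPM (log2 fold change 0.95, adjusted p = 5.83e-05), *Aldh1l1* rose (0.83), and *Shmt2*, which makes glycine from serine, fell (-0.30). In the caput 2 of 15 rose and 2 fell (13.7% and 14% of all genes), with *Aldh1l1* at 1.99, *Gpt2* at -0.43 and *Shmt1* at -0.46. Of the amino acid transporters, 3 of 12 rose and 3 fell in the IS and 5 of 13 rose and 2 fell in the caput. *Slc38a1*, a glutamine transporter, rose in both (1.504 and 1.17), as did *Slc1a4* (0.50 and 0.75), while *Slc3a2*, the shared heavy chain, fell in both (-0.31 and -0.42) as did its partner *Slc7a5* (-0.44 and -0.48). *Slc7a1*, a cationic amino acid transporter named after its values were seen, fell in the IS (-0.30) and rose in the caput (0.29). Among 20 cytosolic tRNA synthetases, none rose and 2 fell in the IS (*Wars* and *Yars*), and 3 rose and 3 fell in the caput by small amounts, among them *Yars* (-0.18), *Sars* (-0.15) and *Qars* (-0.13). *Wars*, which fell in the IS, was among those that rose in the caput (0.14, adjusted p = 0.0478).

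In the parallel branches of the unfolded protein response, led by ATF6 and XBP1, 12 of 22 chaperones, degradation factors and sensors fell in the caput, none rose and 10 did not pass, where 14% of all genes fell and 13.7% rose. The median log2 fold change was -0.16, and across alternatives 9 to 13 fell. In the same libraries the summed level of the 7 caput markers was 46966 to 76665 CPM in ArKI against 63634 to 80708 CPM in WT (2 of 7 fell). That of the fibroblast and endothelial markers was 840 to 1943 CPM against 717 to 791 CPM (2 of 7 rose), and all 8 sperm and spermatid markers fell. Their part in the list counts of the caput was not tested. *Pdia6* (-0.29), *Hsp90b1* (-0.33) and *Calr* (-0.29) had the smallest adjusted p. *Hsp90b1* went from 2866 ± 208 to 2269 ± 217 CPM (SD, n = 5). In the IS 3 of the 22 fell (*Atf6* at -0.22, *Ern1* at -0.47, *Hyou1* at -0.19, the last 2 also among those that fell in the caput, at -0.36 and -0.30), none rose, and the median was 0.00. Of 14 HIF target genes tested in the caput, 7 fell, 1 rose and 6 did not pass, beside the same shares of all genes, with the smallest adjusted p for *Ndrg1* (-0.85), *Ldha* (-0.30) and *Kdm3a* (-0.28). In the IS, where 15% of all genes rose and 14.6% fell, 3 of 14 rose and 3 fell, with *Egln3* at -0.87 and *Adm* at -0.9996. *Egln3* also fell in the caput (-0.94), and *Ldha* rose in the IS (0.28). Of the NRF2 targets, 2 of 11 rose and 4 fell in the IS (*Gclm* 0.25, *Me1* 0.64, *Osgin1* -0.65) and 2 fell in the caput (*G6pdx* -0.36, *Gclc* -0.25, also at -0.21 in the IS). Of the immediate early genes, 5 of 13 fell and none rose in the IS, with *Egr2* at -0.32, *Ier2* at -0.33 and *Klf2* at -0.74. In the caput 2 of 13 rose and 3 fell, with *Jun* at 0.36, *Nr4a1* at -0.63 and *Klf4* at -0.34. *Klf4* also fell in the IS (-0.41) and *Egr2* in the caput (-0.28). Of the FGF receptors and related ligands, *Fgfr1* (-0.27), *Fgfr2* (-0.44) and *Fgfr3* (-0.36) fell in the IS and none of 3 tested passed in the caput.

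**Figure D4:**
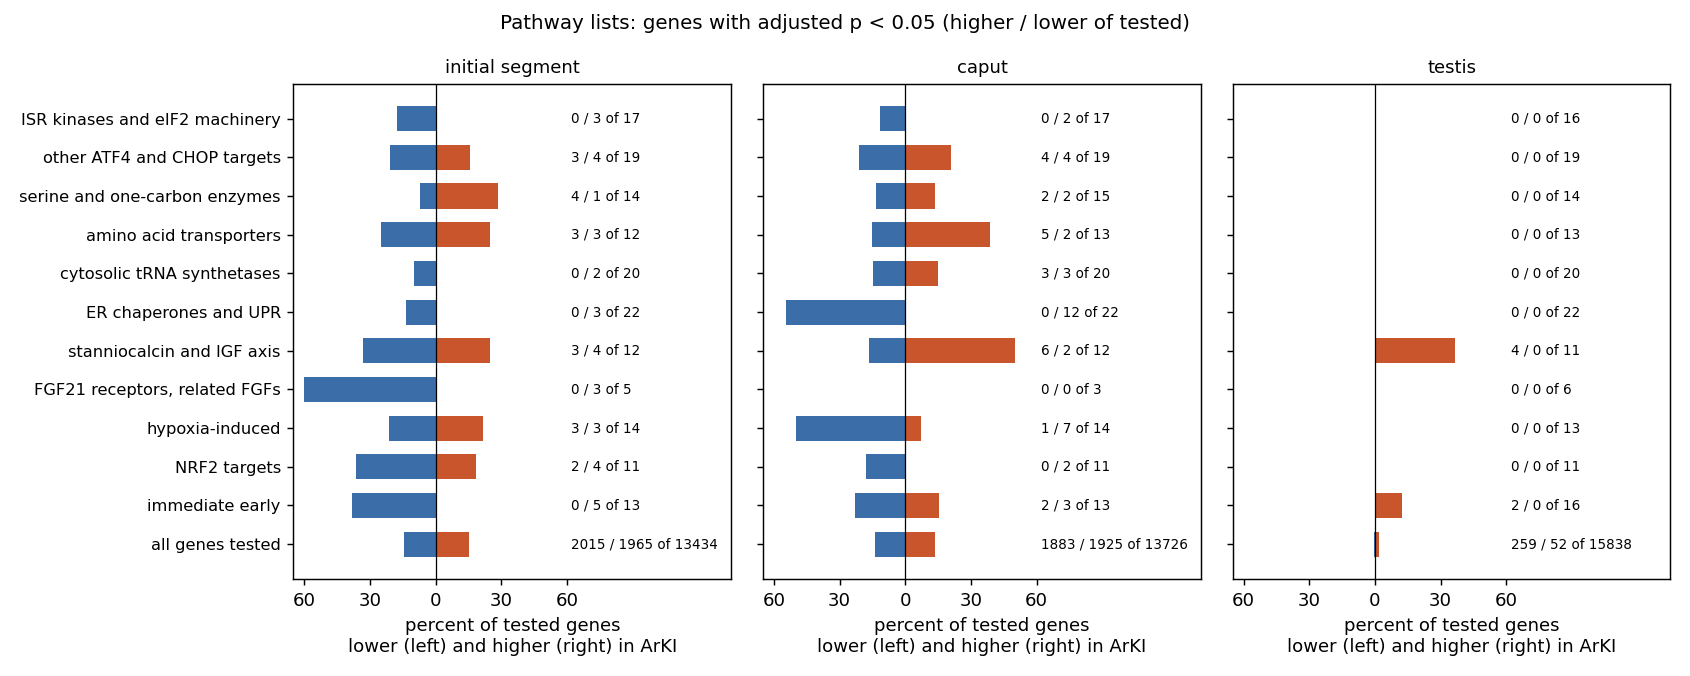
Share of the tested genes of each list with an adjusted p under 0.05, in percent, lower in ArKI to the left and higher to the right, for the IS, caput and testis; the figures beside the bars are the numbers higher, lower and tested, and the bottom bar is all genes. Far to the left lie the endoplasmic reticulum list (12 of 22) and the hypoxia list (7 of 14) in the caput and the FGF list in the IS (3 of 5). The IGF list lies to the right in the caput (6 of 12) and testis (4 of 11).

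The IGF system, on which stanniocalcin-2 acts, held the largest single change of these lists in both epididymal segments, that of *Pappa2*. *Pappa2*, a protease that frees IGF from its binding proteins and is a known target of stanniocalcin inhibition, went from 6.54 ± 1.26 to 46.9 ± 7.49 CPM in the IS (log2 fold change 2.83, SE 0.13, adjusted p = 2.38e-10) and from 4.83 ± 0.946 to 115 ± 36.1 CPM in the caput (4.55, SE 0.27, adjusted p = 3.65e-06). *Igf1* rose in the IS (1.27), the caput (1.41) and the testis (0.67). *Igf2* fell in both segments (-1.17 and -1.36), its level in the caput being 5.74 ± 0.850 CPM in WT and 2.26 ± 0.252 CPM in ArKI, and rose in the testis (1.08). Among the binding proteins, *Igfbp3* fell in the IS from 49.3 ± 5.77 to 26.8 ± 1.64 CPM (-0.88) and rose in the caput (0.46). *Igfbp4* fell in the IS (-0.27) and rose in the caput from 31.5 ± 2.99 to 64.8 ± 8.73 CPM (1.03). *Igfbp2* fell in the IS (-0.76) and rose in the testis (0.79). In all, 3 of 12 genes of the list rose and 4 fell in the IS (median -0.14; 15% and 14.6% of all genes), 6 rose and 2 fell in the caput (median 0.53; 13.7% and 14%), and 4 of 11 rose in the testis (median 0.42; 1.64%). Of the fibroblast and endothelial markers, 2 of 7 were higher in the caput, and 2 of 7 were higher and 4 lower in the IS. In the testis the summed level of 10 Leydig and Sertoli cell genes was 1262 to 1376 CPM in ArKI against 921 to 1127 CPM in WT. Their part was not tested.

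In the testis, no gene of the pathway lists fell, and 2 immediate early genes rose, *Btg2* (1.35) and *Junb* (0.73). *Junb* fell in the IS (-0.50). Counted once each, 6 of 156 list genes rose there against 1.64% of all genes. Over the epididymis, 18 of 154 list genes rose and 33 fell in the IS, against 15% and 14.6% of all genes, and 22 rose and 38 fell in the caput, against 13.7% and 14%.

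Genes whose pattern over the 20 epididymal samples was most like that of *Stc2* were found by the root mean square difference of scaled log2 levels, among 14328 genes. The 5 closest were *Tom1l1* (0.358), *Ripk3* (0.367), *Efemp1* (0.398), *Usp14* (0.409) and *Epb4.1l3* (0.430). Like *Stc2*, each was lowest in IS WT and higher in IS ArKI, as in *Efemp1* with means of 15.1, 46.4, 27.8 and 45.1 CPM in IS WT, IS ArKI, caput WT and caput ArKI. None is on a pathway list. The nearest of the other 9 genes was *Psat1*, at rank 1452, followed by *Ddit3* at rank 2208 and *Phgdh* at rank 2651, and *Atf4* came last at rank 10335. The points share libraries and the measure includes the samples that chose *Stc2*, so these ranks are a description.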

How the data were processed

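RNA of 26 samples was sequenced as single-end 50-bp reads, and the authors aligned them to mm10 with STAR and counted uniquely mapped reads per RefSeq gene with Subread 1.5.1 (bcl2fastq 1.8.4, per the labels). The deposited values are raw counts. The labels name a TruSeq kit without strand marking and the study's methods a stranded one, and no strand setting of the counting is given in the sources used here. No sample column was left unmapped (0).

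Each tissue was fitted alone (IS, caput, testis), the WT segments together, and the interaction over 20 epididymal samples, with edgeR 4.0.16 in R 4.3.3: filterByExpr (minimum count 10, minimum total 15), TMM scaling, robust quasi-likelihood test, two-sided, Benjamini-Hochberg adjustment over all genes tested. In the fits of a single tissue the p-values measure the spread between mice within groups. The WT segment comparison and the interaction took the IS and caput samples as independent, although they came from the same mice. CPM were scaled by TMM within the epididymis and within the testis; RPKM divide by the exon length of GENCODE transcripts on GRCm38. Likeness used log2(CPM + 0.5). The study's own test (ROTS on voom values) was not run. Alternatives were RLE scaling, library size only, no filter beyond 1 count, 10 counts in every sample, DESeq2 1.42.0, limma-voom (limma 3.58.1), the replicate number as a block, and leaving out each library. A run on simulated counts with known changes served only to check the code, and its outcome is not given here. Intervals and floors (3 counts) cover counting error or replicate spread only.

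The 10 genes and all lists were chosen with earlier results of these data known. From each list and tissue, the up to 3 genes with the smallest adjusted p under 0.05 are named. The 5 genes most like *Stc2* and all 10 genes are named in any case. Plots were drawn with matplotlib 3.10.9. The level of the gene changed in the knockin is not reported here.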

Additional observations from a re-analysis of the deposited data

Results flagged for a closer look

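Among the 40 groups of 5 samples checked for a sample far from the rest, of which chance gives about 1 in 20, or 2, there was 1: *Atf3* in IS WT, where replicate 3 was at 8.19 CPM and the other 4 between 1.49 and 3.39 CPM.

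The genotype difference (log2 fold change) differed between the IS and the caput by the interaction term at an adjusted p under 0.05 for the genes given here, each value being IS minus caput. Among the 10 genes these were *Asns* (0.45) and *Phgdh* (0.93). Among the named genes of the eIF2 and ATF4 lists they were *Gcn1l1* (-0.53), *Impact* (0.24), *Vldlr* (-0.95) and *Wars* (-0.45), and among enzymes of serine and one-carbon metabolism *Mthfd1l* (1.08), *Aldh1l1* (-1.15) and *Gpt2* (0.37). The chaperones *Hsp90b1* (0.37) and *Pdia6* (0.27), which fell in the caput, differed as well. In the IGF system the difference was -1.72 for *Pappa2*, -1.33 for *Igfbp3* and -1.30 for *Igfbp4*. It was -0.38 for *Fgfr1*, -0.35 for *Fgfr2* and -0.44 for *Fgfr3*. Of the remaining lists, the HIF targets *Ldha* (0.57), *Ndrg1* (0.88) and *Kdm3a* (0.39), the NRF2 target *Osgin1* (-0.86) and the immediate early gene *Ier2* (-0.42) differed.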

How the results depend on the processing

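Of the values of single genes, 310 kept their direction and side of the threshold when scaling, filter or tool was changed or the replicate block was added. Another 4 reversed, 3 lost a call and 1 gained a call. Reversals were near 0: *Atf3* in the IS with DESeq2 (-0.0059), and *Atf4* scaled by library size only in the IS (0.0090), caput (0.013) and interaction (-0.0045). When single libraries were left out, 483 values kept both, 34 reversed, 18 lost a call and 3 gained a call. Leaving out each library in turn gave ranges that crossed 0 for *Atf3* (-0.18 to 0.63), *Atf4* (-0.061 to 0.020) and *Asns* (-0.11 to 0.058) in the IS, *Chac1* in the caput (-0.040 to 0.082), *Atf4* (-0.00061 to 0.070), *Ddit3* (-0.0079 to 0.086), *Chac1* (-0.45 to 0.18), *Asns* (-0.017 to 0.053) and *Fgf21* (-0.068 to 0.10) in the testis, and the interactions of *Atf4* (-0.027 to 0.053) and *Trib3* (-0.25 to 0.083). The number of the 10 genes past the study's thresholds in the IS ran from 0 to 1 (*Psat1*, or *Phgdh* without WT replicate 1), the number higher in WT IS than WT caput from 0 to 1 (*Atf4*), the number with a positive interaction from 1 to 3, and the list genes that fell in the testis from 0 to 1. With 10 counts in every sample, *Fgf21* in the caput and *Stc2* in the testis could not be tested, leaving 0 of the 10 genes past the thresholds there and 0 that rose in the testis; without a filter, and with DESeq2, 1 list gene fell in the testis. *Atf3* in the caput lost its call without WT replicate 2, 3 or 4, or any of ArKI replicates 1 to 4, with library size only and with limma-voom. *Asns* lost its interaction call without IS WT replicate 2, 3 or 5 or IS ArKI replicate 1 or 4, and the interaction passed for *Atf3* without IS WT replicate 3 (1.19, adjusted p = 0.0235) and for *Psat1* without caput ArKI replicate 2 (0.73, adjusted p = 0.0258). *Ddit3* in the IS passed without ArKI replicate 3 (0.42, adjusted p = 0.00500) and scaled by library size only. The cause was not tested. Deviations of samples with the same replicate number correlated at -0.17 to 0.20. Replicate 5 correlated best with its own number in the 4 epididymal pairings. Between the segments of the same genotype, which may share mice, WT replicates 3 and 4 and ArKI replicate 4 did so too, and the other numbers did not. The labels name no shared mouse, so the numbers were not taken as pairs. With the replicate block, *Psat1* was at 0.96 (adjusted p = 5.52e-07) and *Phgdh* at 0.87 (0.00654) in the IS, *Asns* at -0.51, *Stc2* at 0.90 and *Fgf21* at -1.49 in the caput and *Stc2* at 1.46 (0.0114) in the testis, and of the calls among the 10 genes that of *Atf3* in the caput was lost. *Fgf21* in the IS and *Atf3* and *Trib3* in the testis had too few counts to test, although the testis libraries were the deepest of the series.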
